A study of Mus musculus with 16 samples.

Results

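The genes described here are 9 that T cells are known by: the surface glycoprotein gene Thy1, the kinase genes Lck and Zap70, the T cell receptor complex genes Cd3e, Cd3d and Cd3g, the coreceptor genes Cd4 and Cd8a, and the adaptor gene Lat. They were read from the gene name that the array design gives each probe, and were 9 of 27962 names on the array, with 14 of 41174 probes. A filter on dim spots kept 11 of the 14 probes, at least 1 for each of the 9 genes.

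All cells were follicular B cells, the mature B cells of lymphoid follicles, from mice of the C.B17 strain, and RNA from 8 biological samples was compared with a reference pooled from 6 lines, EL4, J558, DN3, P388d, RS2 and R1. Auto.Neg samples (n = 2) came from mice with the ATAμκTg transgenes, which encode a VH3609μ/Vk21-5κ receptor against thymocyte Thy-1, and were labelled Thy-1 knockout. Non-edited (n = 1) and Edited (n = 1) samples came from VH3609t +/- x Vk21-5Tg +/- mice and were also labelled Thy-1 knockout. Auto.Pos samples (n = 2) came from AGcAμκTg mice, whose receptor against intestinal goblet cells is written VH3609μ/Vk19-17κ in 1 label and with a Vkappa17-17kappa light chain in another. WT samples (n = 2) were wild type, and neither the Auto.Pos nor the WT labels name a change of Thy-1. The labels of every Thy-1 knockout sample also name the light chain that the Auto.Neg transgenes encode. Neither the Auto.Pos nor the WT labels name that light chain, so it cannot be told apart from the Thy-1 label. No ages are given, the promoter of each transgene is not given in the sources used here, and nothing in the labels ties the samples of a group to separate mice, so a p-value here reflects the spread among these samples alone, which may be technical.

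In T cells, engagement of the receptor leads Lck to phosphorylate the CD3 chains, on which Zap70 docks and then phosphorylates the adaptor Lat. CD4 and CD8 bring Lck to the receptor, and Thy-1 is a lipid-anchored protein abundant on mouse thymocytes and T cells. Most of these genes are little used by follicular B cells, although Lck has been described in some B cells. EL4 is a T lymphoma line, so a ratio below 0 on a T cell gene is set against RNA that includes a T cell line. In bulk RNA, fewer cells of a type and less RNA per cell cannot be told apart.

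Promoter sequence is shown for 2 reasons that bear on the readouts. Lck, which had the widest range of the kept member probes after the first Thy1 probe, has 2 RefSeq starts 15269 bases apart, which its single probe does not separate. Cd3d and Cd3g start 1355 bases apart and face away from each other, so their upstream regions are neighbours. The sequences are the 250 bases before each start, 5′ to 3′ on the gene's strand, from RefSeq on GRCm38.p6, with GGAA or its reverse complement TTCC in capitals. GGAA is the core bound by factors of the ETS family, which includes several that act in lymphocytes.
Lck, minus strand, chr4:129558373-129558622: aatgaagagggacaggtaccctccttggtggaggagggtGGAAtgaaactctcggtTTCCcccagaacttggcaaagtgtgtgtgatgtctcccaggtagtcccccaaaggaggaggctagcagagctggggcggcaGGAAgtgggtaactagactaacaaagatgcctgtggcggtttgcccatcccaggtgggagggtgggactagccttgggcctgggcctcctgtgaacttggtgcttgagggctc
Lck, minus strand, chr4:129573642-129573891: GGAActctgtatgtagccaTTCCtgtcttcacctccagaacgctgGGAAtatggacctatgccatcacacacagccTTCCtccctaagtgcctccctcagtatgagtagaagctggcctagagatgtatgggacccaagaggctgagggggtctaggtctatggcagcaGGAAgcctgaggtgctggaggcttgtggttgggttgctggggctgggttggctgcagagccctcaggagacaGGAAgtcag
Cd3d, plus strand, chr9:44981536-44981785: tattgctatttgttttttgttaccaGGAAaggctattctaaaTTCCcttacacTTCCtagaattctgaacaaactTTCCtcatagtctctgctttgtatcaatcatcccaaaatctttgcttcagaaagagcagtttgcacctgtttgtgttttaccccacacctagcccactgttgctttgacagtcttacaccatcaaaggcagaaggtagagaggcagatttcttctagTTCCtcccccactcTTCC
Cd3g, minus strand, chr9:44980432-44980681: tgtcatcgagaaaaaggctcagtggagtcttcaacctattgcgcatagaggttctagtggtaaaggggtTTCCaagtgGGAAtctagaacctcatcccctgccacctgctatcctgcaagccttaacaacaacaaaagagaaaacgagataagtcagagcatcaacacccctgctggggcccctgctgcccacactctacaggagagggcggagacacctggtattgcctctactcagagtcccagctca
The 4 windows held 3, 6, 6 and 2 matches, counted on both strands. Of 32851 RefSeq windows of the same length, 93.4% held at least 1 match, 76.8% at least 2, 54.7% at least 3 and 8.69% at least 6. The matches describe these letters only.

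Each sample was hybridised on a dye-swap pair of arrays, once in Cy5 and once in Cy3, and values below are log2 of sample over reference, averaged over the pair. Across the 16 arrays, 61.9% to 81.9% of probes had a sample channel that the scanner software marked as well above background. The B cell markers Cd79a, Cd79b, Ms4a1, Cd22, Cr2, Fcer2a, Pax5, Blk and Ebf1 were all above background on all 16 arrays, with Ms4a1, the gene of the CD20 surface protein, at 8.60 to 9.57 over the samples. There were 7 slides and 4 scan days. Slide 2 alone held both genotypes, with the second Auto.Neg and the first Auto.Pos sample on it, and these correlated at 0.979 across probes, against 0.882 between the Auto.Neg samples, 0.884 between the Auto.Pos samples and 0.913 between the WT samples. Scan day 4 held labelled-knockout samples only and scan days 1 and 3 held the others only. Outside slide 2 the scan day and the Thy-1 label therefore cannot be told apart. The light chain transgene and the Thy-1 label cannot be told apart on any slide, slide 2 included.

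Thy1 is the gene named in the knockout labels, so it is given first. Its 2 probes lie on chromosome 9 of mm7, the build the files use. The first, A_51_P420731, is placed at chr9:43981253-43981698, a span of 446 bases where 85.5% of placed probes span 60, so its match may be in pieces, and it is called the spanning probe here. The second, A_52_P479249, is placed at chr9:43982862-43982921 and is called the 60-base probe. Both are assigned to the same transcript in the files, and exon positions were not used here.

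The spanning probe of Thy1 gave higher ratios in the samples labelled Thy-1 knockout than in the rest. The Auto.Neg samples read -0.55 (sample 1) and 0.46 (sample 2), Non-edited -0.52 and Edited -1.43. The Auto.Pos samples read -2.93 (sample 1) and -3.77 (sample 2), and the WT samples -3.62 (sample 1) and -3.06 (sample 2). The labelled-knockout samples were the 4 highest of the 8, and the groups did not overlap. The share of all probes with groups that did not overlap was 2.08%.

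The mean was -0.51 ± 0.77 (SD, n = 4) in the labelled-knockout samples and -3.35 ± 0.41 (SD, n = 4) in the others. The difference was 2.84 with a standard error of 0.39, which is 7.14-fold. In limma it ranked first by p of the 29640 probes tested, with a Benjamini-Hochberg adjusted p of 0.991. An exact two-sided permutation test over the 70 splits of 8 samples gave p = 0.0286 for this probe alone, the smallest the design allows. Within slide 2 the difference was 3.39, from 1 sample a group, and without slide 2 it was 2.65 with an adjusted p of 0.126. The direction is the opposite of what the label would give for a probe inside a deleted stretch. The deleted stretch is not given in the sources used here, so neither probe checks the genotype. The samples are called labelled knockout for that reason. They also share a light chain transgene that the others lack. Whether a difference by label goes with Thy-1 or with that transgene was not tested.

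The 60-base probe of Thy1 did not separate the same samples. The Auto.Neg samples read -4.00 and -4.19, Non-edited -3.97 and Edited -4.03. The Auto.Pos samples read -3.73 and -4.22, and the WT samples -4.31 and -4.54, sample 1 first in each pair. Auto.Pos sample 1 was the highest of the 8 and WT sample 2 the lowest, and the labelled-knockout samples lay inside the range of the others. The difference was 0.15 with a standard error of 0.18 (limma, adjusted p = 0.991), and the exact permutation test gave p = 0.4. Within slide 2 it was -0.47. This probe depended on the dye, with arrays of a pair 1.19 to 1.65 apart, against a median of 0.24 over all kept probes. The Edited value rests on its Cy5 array alone, since the Cy3 spot was marked an outlier, and on the Cy5 arrays the difference was -0.00.

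**Figure D1:**
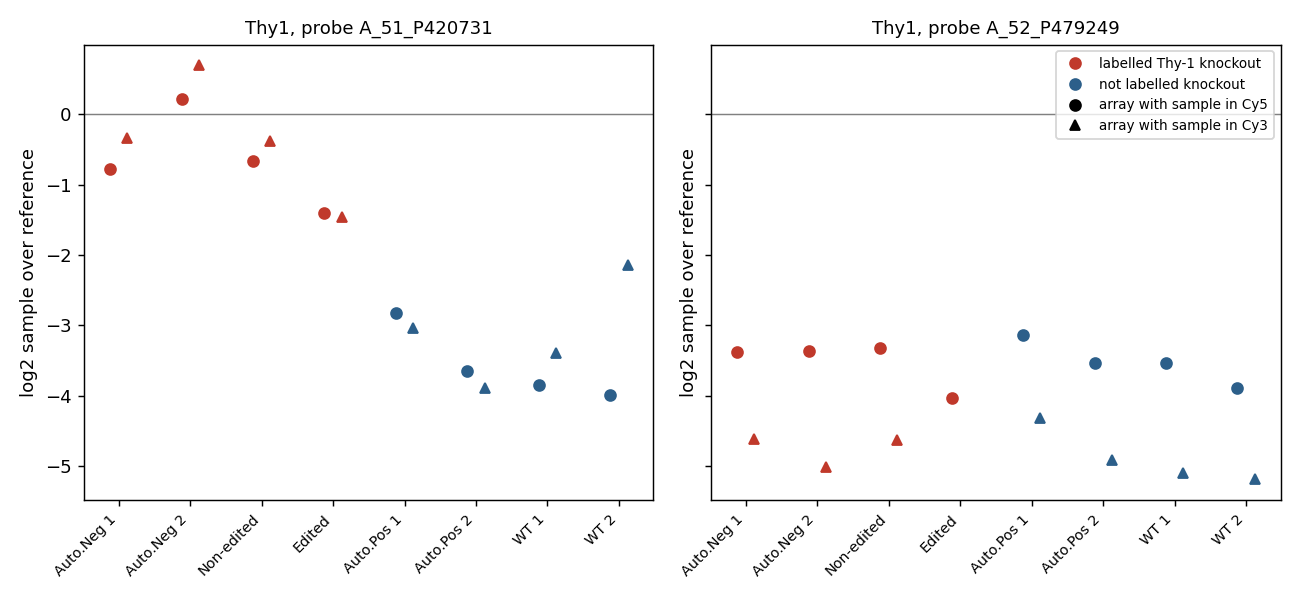
Log2 sample over reference on each array for the 2 Thy1 probes, with the sample in Cy5 (circles) or Cy3 (triangles); red marks samples labelled Thy-1 knockout and blue the others. On the left the labelled-knockout samples lie at -1.45 or above and the others at -2.14 or below; on the right the dyes separate and the labels do not.

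Both Thy1 probes gave measurable signal. The sample channel of the spanning probe was 1.83 to 29.6 times its local background over the 16 arrays, and that of the 60-base probe was 13.5 to 119.1 times. In the reference channel the spanning probe was much the weaker, with medians of 39.5 and 1310 times background. Both probes were marked well above background on all 16 arrays, and none was saturated in the sample channel. The arrays of WT sample 2 were the farthest apart on the spanning probe, at -3.99 in Cy5 and -2.14 in Cy3, and the Cy5 arrays alone gave a difference of 2.92.

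By group, the spanning probe had a mean of -0.05 ± 0.72 (SD, n = 2) for Auto.Neg, -3.35 ± 0.59 (SD, n = 2) for Auto.Pos and -3.34 ± 0.39 (SD, n = 2) for WT. From high to low the order was Auto.Neg, Non-edited, Edited, WT and Auto.Pos. Non-edited lay within the Auto.Neg spread, and Auto.Pos minus WT was -0.01 with a standard error of 0.48. Auto.Neg and WT differed by 3.30 with a standard error of 0.48 (limma, adjusted p = 0.358). Auto.Pos was lower than Auto.Neg by a difference of -3.30 with a standard error of 0.48 (limma, adjusted p = 1). With scan day as a random block these became 2.79 (limma, adjusted p = 0.025) and -3.41 (limma, adjusted p = 0.00714). Those fits called 610 and 41 of 29640 probes, and rest on a scan-day correlation of 0.92 estimated from these same samples. By Thy-1 label, scan day as a random block gave 3.15 for the spanning probe and called 0 of 29640 probes. With the scanner software version as a block, Auto.Pos minus Auto.Neg was -3.30 (limma, adjusted p = 0.0274), and 2946 of 29640 probes had an unadjusted p under 0.05. That fit keeps fewer residual degrees of freedom than the 3 without a block. WT sample 1 alone had its software version, so the WT differences of that fit rest on WT sample 2. They were 2.56 for Auto.Neg minus WT and -0.75 for Auto.Pos minus WT. Auto.Pos minus WT was -0.62 with scan day as a random block (limma, adjusted p = 0.0668), -0.70 on the Cy3 arrays and -0.70 within scan day 3. On the Cy5 arrays it was 0.68.

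The submitters' series table, a second version of the same arrays, attributes columns to samples differently from the scanner files. Of its 16 columns, 6 matched best the array of their own label and 10 another, with absolute correlations of 0.977 to 0.996. Read by the table's labels, Auto.Neg stood at -1.65 and -1.62 on the spanning probe, Auto.Pos at -4.33 and -4.17, WT at -3.38 and -0.53, Non-edited at -0.59 and Edited at -1.52. The genotypes then overlapped, since both columns labelled WT sample 2 matched the arrays of Auto.Neg sample 1. Each Auto.Neg value is a mean of unlike columns, 0.31 and -3.60 for the first and 0.65 and -3.89 for the second, of which the higher matched Auto.Neg sample 2 and the lower Auto.Pos sample 1. The difference was 1.76 under the table's labels (limma, adjusted p = 0.958) and 3.36 with each column rematched to its array (limma, adjusted p = 0.277).

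**Figure D2:**
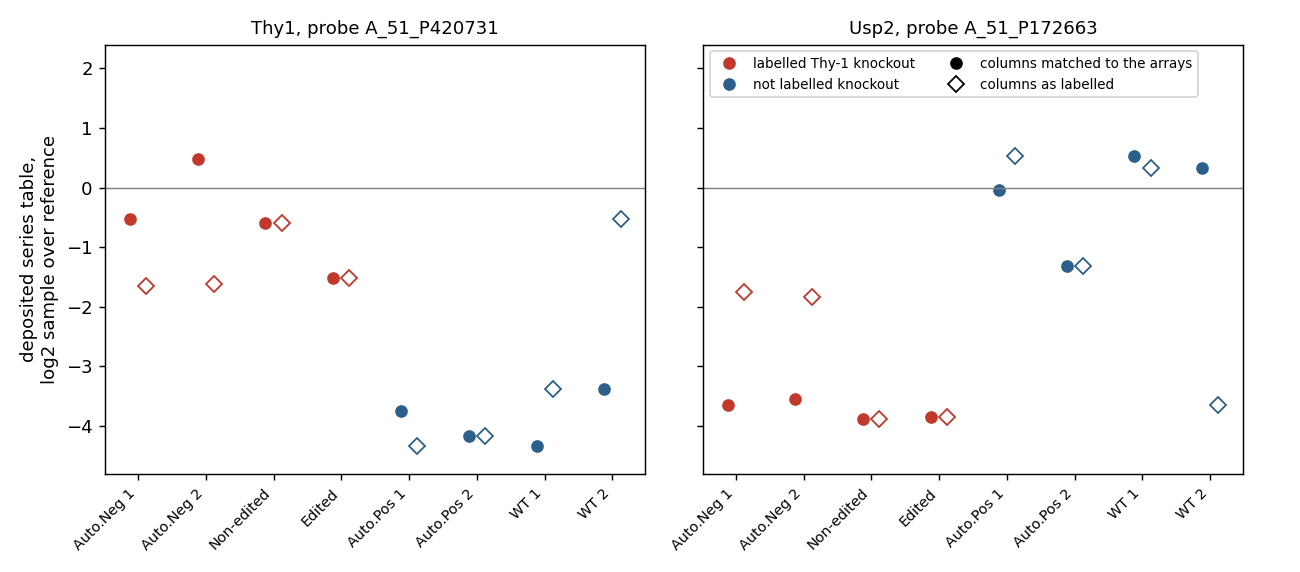
Values of the deposited series table (log2 sample over reference, mean of a sample's 2 columns) for the Thy1 spanning probe and for Usp2, by sample. Filled circles use columns matched to the arrays and open diamonds the columns as labelled; with matched columns the labelled-knockout samples and the others separate on both probes, and as labelled WT sample 2 is the highest of the 8 for Thy1 (-0.53) and lies among the labelled-knockout values for Usp2 (-3.65).

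The genes around Thy1 were read next, over the 112 kept probes of 77 gene names within 2 Mb of its probes, Thy1 left out. In labelled knockout against the others, 56 were higher and 56 lower, and their median difference was -0.00 against -0.00 over all probes. No probe passed the adjusted threshold (0 of 29640 in limma, or 0%). Of the 112 probes, 8 had an unadjusted p under 0.05, which is 7.14%, against 3.83% of all probes and 3.82% of those on other chromosomes. From 2 to 10 Mb the share was 6.37%, and farther along the chromosome it was 3.28%. At least 2-fold differences made up 2.68% within 2 Mb and 1.08% of all probes.

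Usp2, a ubiquitin-specific protease gene, is the next gene after Thy1 in RefSeq order, and its probe lies 44.2 kb away. The Auto.Neg samples read -2.62 and -2.55, Non-edited -2.78 and Edited -3.06. The Auto.Pos samples read -0.04 and -1.25, and the WT samples 0.48 and 0.25. All labelled-knockout samples were below all others. The difference was -2.61 with a standard error of 0.36 (limma, adjusted p = 0.991), the second lowest p of all probes, and within slide 2 it was -2.52. The difference was -4.51 with the scanner's log ratio, -3.60 in the series table with columns rematched and -1.80 in that table as labelled. Its adjusted p was 0.0239 without Auto.Pos sample 2 and between 0.0741 and 1 under every other alternative.

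Tmprss13, which encodes a transmembrane serine protease, lies 1322.4 kb from Thy1 and had the third lowest p. Its difference was 1.26 with a standard error of 0.18 (limma, adjusted p = 0.991). It read 1.03 to 1.79 in the labelled-knockout samples and 0.24 to 0.36 in the others, with 0.75 within slide 2. Its adjusted p was 0.0375 without Auto.Neg sample 2 and 0.0336 without slide 2. D50494 and Arhgef12, a gene for a guanine nucleotide exchange factor, had differences of 1.45 and 0.96, and 0.33 and 1.18 within slide 2. The D50494 probe lies 588.7 kb from Thy1, beside a Ddx6 probe at 588.1 kb that differed by 0.31 with overlapping groups. The Arhgef12 values are from probe A_52_P58080, and the other kept Arhgef12 probes differed by -0.02 and 0.07. Counted after the values were seen, 7 of the 25 lowest p lay on chromosome 9, which holds 5.65% of kept probes. The 7 include the Thy1 spanning probe itself and Usp2, Tmprss13 and D50494, so the count is not separate from the values above.

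**Figure D3:**
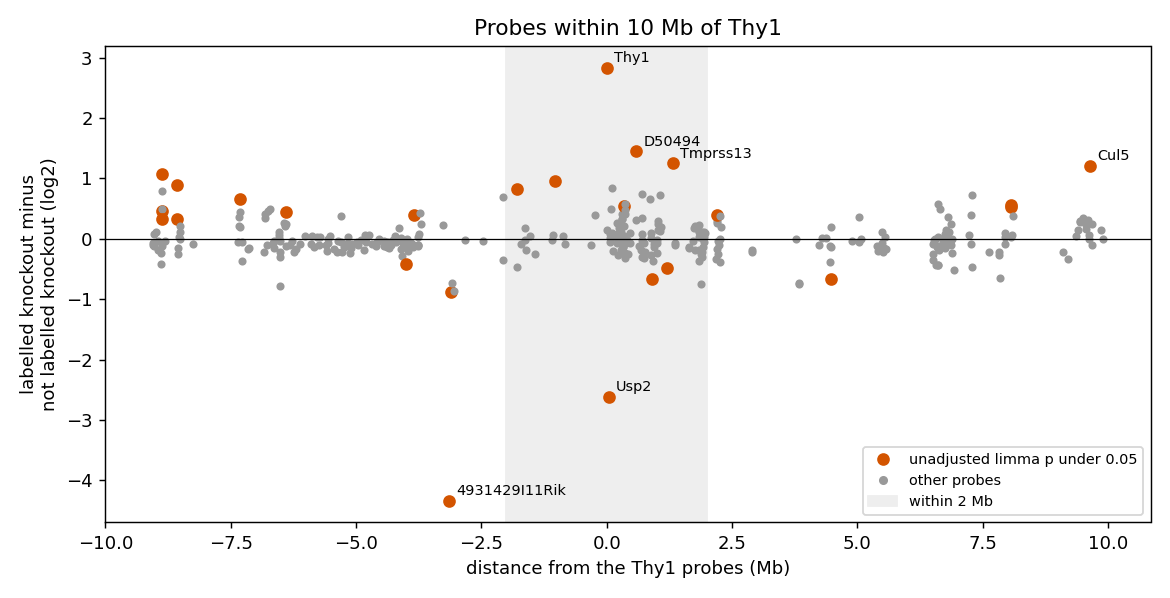
Difference in log2 ratio, labelled knockout minus the others, against distance from the Thy1 probes for kept probes within 10 Mb. Orange points have an unadjusted limma p under 0.05 and grey points the rest; Thy1 (2.84) and Usp2 (-2.61) stand out within the shaded 2 Mb, with 4931429I11Rik at -4.33 farther out.

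The probes whose values over the 8 samples were most like the Thy1 spanning probe were NAP026179-1 (r = 0.962), Srpr (0.960), Lynx1 (0.955), Pls3 (0.948) and Hyou1 (0.947). Srpr and Hyou1 are on the same chromosome as Thy1, Hyou1 inside the 2 Mb window and Srpr outside it, and each is named for a single probe. By Thy-1 label these probes differed by 0.32 for Srpr and 0.54 for Hyou1. The Hyou1 probe was above background on 9 of 16 arrays, and a second Hyou1 probe differed by 0.21 with overlapping groups. Other Srpr probes differed by -0.06, 0.49 and 0.80. The range over samples was 0.16 for NAP026179-1 and 2.48 for Pls3, the smallest and largest of these 5. Those most like the 60-base probe were Mansc1 (0.981), 4930539E08Rik (0.948), AK042829 (0.930), Pde7a (0.921) and AK044191 (0.918). The correlations run over 8 samples that share arrays, dyes and reference and are given as a description.

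Lck, the kinase that acts first after receptor engagement, separated Auto.Neg, Auto.Pos and WT without overlap. Its probe, A_51_P141288 at chr4:128993249-128993308 (mm7), was 32.4 to 288.2 times background in the sample channel. The WT samples read -0.24 and -0.14, the Auto.Neg samples -0.99 and -1.17, and the Auto.Pos samples -1.40 and -1.58. Edited read -0.49 and Non-edited -2.35. The 3 replicated groups did not overlap, as on 18.7% of all probes for Auto.Pos against Auto.Neg, 28.8% for Auto.Pos against WT and 24.6% for Auto.Neg against WT, and the single Edited and Non-edited samples lay on opposite sides of Auto.Neg.

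Auto.Pos was lower than WT on the Lck probe by a difference of -1.30 with a standard error of 0.20 (limma, adjusted p = 0.340). Within scan day 3, which held 1 sample of each, the difference was -1.44. Auto.Neg minus WT was -0.89 with the same standard error (limma, adjusted p = 0.786), and no scan day held both. With scan day as a random block the adjusted p was 0.00399 for Auto.Pos and 0.0372 for Auto.Neg. That fit called 6214 and 610 of 29640 probes in these comparisons, and its p-values rest on a scan-day correlation of 0.92 estimated from these same samples. Auto.Pos minus Auto.Neg was -0.41 (limma, adjusted p = 1) and -0.23 within slide 2.

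In order from high to low, Lck stood at -0.19 ± 0.07 (SD, n = 2) in WT, -0.49 in Edited, -1.08 ± 0.13 (SD, n = 2) in Auto.Neg, -1.49 ± 0.13 (SD, n = 2) in Auto.Pos and -2.35 in Non-edited. By Thy-1 label the difference was -0.41 with a standard error of 0.48 (limma, adjusted p = 0.991), with overlapping groups. Edited was higher than Non-edited by 1.70 on the Cy5 arrays and by 2.02 on the Cy3 arrays, a 3.63-fold mean difference with no replicate check. Lck was the single member probe past 2-fold in both orientations, of 11 kept. Of all probes, 1.17% were past 2-fold in either direction, and most of these were higher in Edited, as Lck was (1.03% of all probes). The arrays of a pair agreed closely on Lck, with gaps of 0.04 to 0.35.

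**Figure D4:**
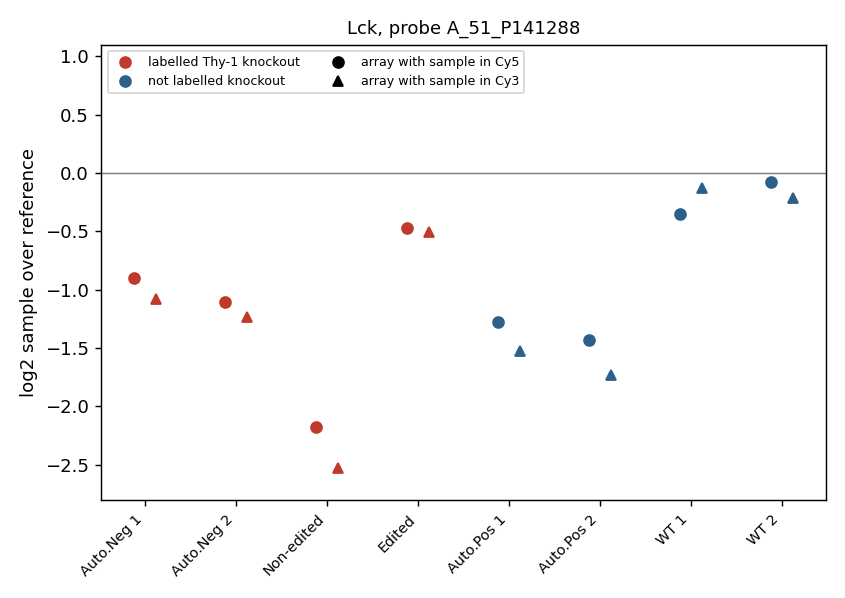
Log2 sample over reference on each array for the Lck probe, with the sample in Cy5 (circles) or Cy3 (triangles); red marks samples labelled Thy-1 knockout. The arrays of each pair lie close together, with WT near 0 and Non-edited lowest at -2.17 and -2.52.

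Zap70, which follows Lck in the cascade, ranged over fewer log2 units. The Auto.Neg samples both read -2.87, Non-edited -2.54 and Edited -2.88, while the Auto.Pos samples read -2.82 and -3.25 and the WT samples -2.71 and -2.08. The labelled-knockout samples lay inside the range of the others, and the difference was -0.08 with a standard error of 0.24 (limma, adjusted p = 0.991). Auto.Pos minus WT was -0.64 (limma, adjusted p = 1.00). WT sample 2 was the highest, and its arrays read -2.57 in Cy5 and -1.59 in Cy3. Lat, the adaptor that Zap70 phosphorylates, ran from -3.31 in Non-edited to -4.29 in WT sample 1, with a difference by label of 0.32 and a standard error of 0.22 (limma, adjusted p = 0.991).

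The CD3 chains carry the signalling motifs of the T cell receptor, and their genes lie 925.1 to 950.6 kb from Thy1. Cd3g ran from -5.72 in Edited to -4.24 in WT sample 2. The latter's arrays read -4.98 and -3.51. Cd3d ran from -5.15 in WT sample 1 to -3.90 in Auto.Pos sample 2. Auto.Pos minus WT was 0.75 for Cd3d with a standard error of 0.33 (limma, adjusted p = 0.989), and 0.57 within scan day 3. Cd3e ran from -0.79 in WT sample 1 to -0.22 in Auto.Pos sample 1 on its kept probe. The reference channel of that probe was also weak, at a median of 16.4 times background, against 1275 for Cd3d. By Thy-1 label the difference was -0.37 for Cd3g with a standard error of 0.27, -0.13 for Cd3d with 0.30 and -0.09 for Cd3e with 0.16, and the groups overlapped on each. A second Cd3e probe was above background on 1 of 16 arrays and was not kept.

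The coreceptor genes Cd4 and Cd8a had 5 probes, of which 3 were kept. The kept Cd4 probe, printed 10 times on each array, ran from -0.01 in Edited to 0.34 in Auto.Neg sample 2. Its signal was 2.02 to 21.2 times background in the sample channel (median 3.56) and 1.96 to 21.5 times in the reference (median 3.27). The probe was thus dim in both channels, and its ratio near 0 compares dim signals. The median SD over its 10 spots was 0.08. Auto.Pos lay at 0.34 and 0.33 and WT at 0.20 and 0.15, a difference of 0.16 with a standard error of 0.19 (limma, adjusted p = 1.00). Cd8a read -2.50 in WT sample 1 and -0.63 in WT sample 2 on probe A_51_P345121, the lowest and highest of the 8. Its other kept probe, also with 10 spots, gave -2.89 and -2.30 for these and ran from -3.17 to -2.18. By label the Cd8a probes differed by -0.34 and -0.39, with standard errors of 0.36 and 0.24 and an adjusted p of 0.991 each in limma.

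**Figure D5:**
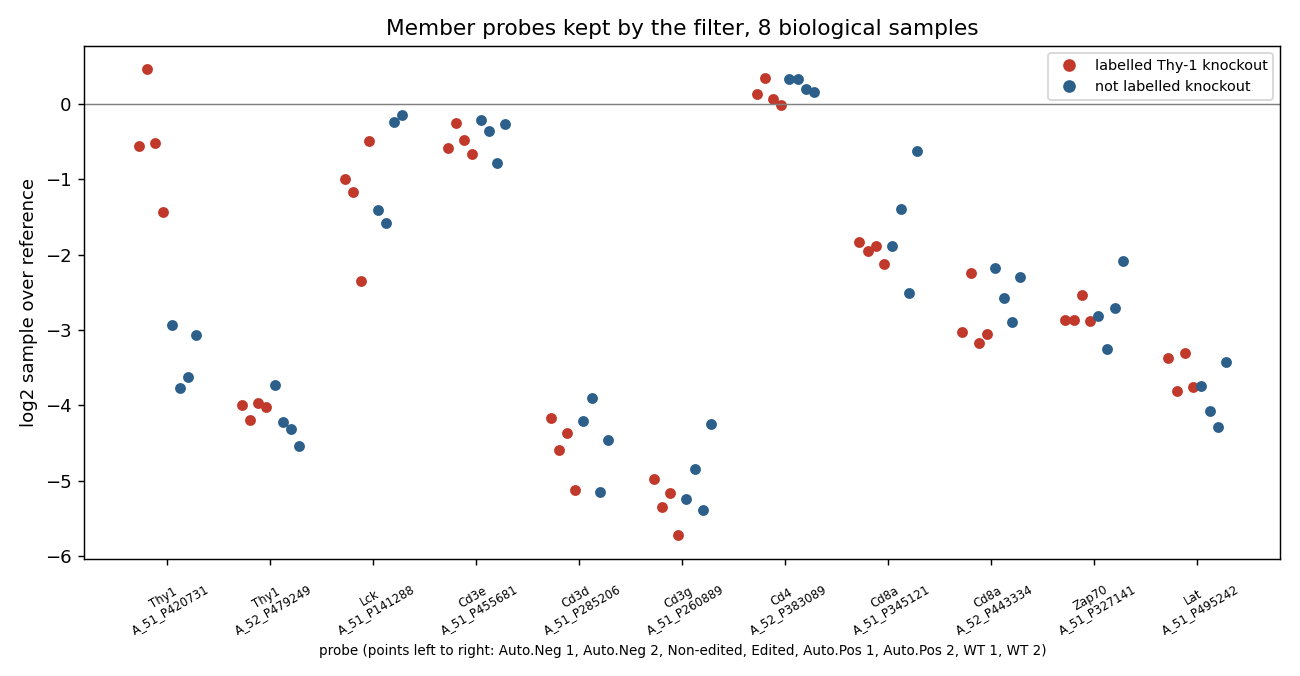
Log2 sample over reference for the 11 kept probes of the 9 genes, 1 point per biological sample in the order given on the axis; red marks samples labelled Thy-1 knockout and blue the others. The Thy1 spanning probe is the one on which red and blue do not overlap.

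Over the 11 kept member probes, limma called 0 in any of the 4 tested comparisons at an adjusted p under 0.05. The share of all probes called was 0% for labelled knockout against the others, 0.0101% (3 probes) for Auto.Pos against Auto.Neg, 0% for Auto.Pos against WT and 0% for Auto.Neg against WT. At an unadjusted p under 0.05 the member probes were the Thy1 spanning probe by label (3.83% of all probes) and in Auto.Pos against Auto.Neg (0.928%), Lck in Auto.Pos against WT (5.35%), and both in Auto.Neg against WT (4.34%). Of these, the Thy1 differences by label and in Auto.Neg against WT were upward, as were those of 2.61% and 2.7% of all probes, and no member was upward in Auto.Pos against Auto.Neg (0.526%) or Auto.Pos against WT (3.32%). At least 2-fold differences were seen on 1 member probe in each comparison. This was the Thy1 spanning probe by label (1.08% of all probes), in Auto.Pos against Auto.Neg (0.904%), in Auto.Neg against WT (4.08%) and within slide 2 (0.908%), and Lck in Auto.Pos against WT (4.63%). The groups did not overlap on 1 member probe by label, 2 in Auto.Pos against Auto.Neg, 5 in Auto.Pos against WT and 4 in Auto.Neg against WT. With 2 samples a group such separation was common, as the shares of all probes above show. The pairwise comparisons share samples.

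Further genes of T cell receptor signalling and T cell identity were read from a list of 48, of which 45 had a kept probe, 76 probes in all. None of the 76 was called in limma in any of the 4 comparisons. At an unadjusted p under 0.05 there were 0 higher and 1 lower by Thy-1 label, 1 and 1 in Auto.Pos against Auto.Neg, 3 and 2 in Auto.Pos against WT, and 1 and 1 in Auto.Neg against WT. In that order these were 1.32%, 2.63%, 6.58% and 2.63% of the list probes, against 3.83%, 0.928%, 5.35% and 4.34% of all probes. With scan day as a random block, the limma adjusted p was under 0.05 for 4 of the list probes named below. The named probes were picked for large differences and the rest of the list was not read in that fit, so this is no count over the 76. These were Sit1, Slamf1, Ptpn22 and Lef1 probe A_51_P501145. That fit called 41, 6214 and 610 of 29640 probes in Auto.Pos against Auto.Neg, Auto.Pos against WT and Auto.Neg against WT. Its p-values rest on a scan-day correlation of 0.92 estimated from these same samples. The list medians were 0.07, 0.03, 0.07 and 0.02, beside -0.00, 0.01, 0.05 and 0.04 over all probes.

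By Thy-1 label the largest differences on the list were those of Cd7, a T cell surface protein gene (-0.99), Cbl, a ubiquitin ligase gene 101.5 kb from Thy1 (0.84), Lcp2, the gene of the SLP-76 adaptor that binds with Lat (-0.76), and Slamf1, a receptor gene of the SLAM family (0.72), each with an adjusted p of 0.991 in limma. A second Cbl probe differed by 0.10 and a second Slamf1 probe by 0.04. The Slamf1 difference was 0.39 without Auto.Pos sample 2, and that of Lcp2 was -1.17 without Auto.Neg sample 2.

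On Slamf1 the Auto.Pos samples read 2.02 and 1.73, the Auto.Neg samples 3.32 and 3.18 and the WT samples 3.85 and 3.30, so both Auto.Pos values were the lowest. The difference was -1.70 from WT (limma, adjusted p = 0.356) and -1.38 from Auto.Neg (limma, adjusted p = 1). With scan day as a random block these were -1.59 (adjusted p = 0.00395) and -1.18 (adjusted p = 0.0412). Its second probe gave -0.14 and -0.01. Sit1, an adaptor gene that restrains receptor signalling, stood at -1.81 and -1.24 for Auto.Pos, -0.46 and -1.23 for Auto.Neg, and 0.24 and 0.29 for WT. Sit1 differed from WT by -1.79 in Auto.Pos (limma, adjusted p = 0.518) and by -1.11 in Auto.Neg (limma, adjusted p = 1.00). The scan-day block gave Sit1 differences of -1.54 in Auto.Pos (adjusted p = 0.00501) and -0.95 in Auto.Neg (adjusted p = 0.0586). The Auto.Neg difference was -0.72 without Auto.Neg sample 2.

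Ptpn22, a phosphatase gene that acts on Lck and Zap70, stood at 0.18 and -0.48 for Auto.Pos and at -1.49 and -1.55 for WT, a difference of 1.37 (limma, adjusted p = 0.712), and it differed from Auto.Neg by 1.07 (limma, adjusted p = 1). With scan day as a random block the difference from WT was 1.09 (adjusted p = 0.00936), and that from Auto.Neg was 0.65 without Auto.Neg sample 1. Lef1, a transcription factor gene of early lymphocytes, stood on probe A_51_P501145 at -3.84 and -2.97 for Auto.Neg, -3.59 and -4.69 for Auto.Pos, and -5.69 and -5.66 for WT. The differences from WT were 2.27 for Auto.Neg (limma, adjusted p = 0.705) and 1.54 for Auto.Pos (limma, adjusted p = 0.792). Under the scan-day block these were 1.70 (adjusted p = 0.0448) and 1.05 (adjusted p = 0.0171), and the Auto.Pos difference was 0.99 without Auto.Pos sample 1. Its other kept probe, with WT at -4.25 and -2.39 and Auto.Pos at -2.22 and -3.62, gave 1.72 for Auto.Neg minus WT (limma, adjusted p = 1.00) and -1.32 for Auto.Pos minus Auto.Neg (limma, adjusted p = 1). The former ranged from 0.79 without WT sample 1 to 2.65 without WT sample 2, and the latter from -2.02 without Auto.Pos sample 1 to -0.63 without Auto.Pos sample 2. Ptprc, the gene of the CD45 phosphatase carried by B and T cells, differed by -1.12 between Auto.Neg and WT (limma, adjusted p = 1.00). WT samples 1 and 2 read 2.36 and 0.90, and the difference was -0.39 without the first and -1.85 without the second. Its other probes gave -0.82, -0.76 and -0.38. Pag1, a membrane adaptor gene, differed by -0.97 between Auto.Pos and Auto.Neg (limma, adjusted p = 1). It ranged from -1.52 without Auto.Pos sample 1 to -0.42 without Auto.Pos sample 2, and the other Pag1 probes gave -0.00 and -0.08.

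Markers of other cells were read beside these values. A further list of T cell markers had 9 or 10 of 10 genes above background in each sample, with medians of -3.39 to -2.92 in the labelled-knockout samples and -3.29 to -2.60 in the others, WT sample 2 being the highest, and Cd28 was not above background on either array of Edited and Auto.Pos sample 2. Macrophage markers had medians of 0.75 to 2.30 in the labelled-knockout samples and 1.46 to 2.55 in the others, NK cell markers -0.33 to 0.07 and -0.19 to 0.24, neutrophil markers 0.66 to 3.82 and 1.57 to 3.82, dendritic cell markers 0.23 to 0.44 and 0.21 to 0.40, and erythroid and platelet markers 5.24 to 6.73 and 5.32 to 6.66. The reference is a mix of cell lines, so these ratios do not give amounts of other cells. Their part in the results was not tested.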

How the data were processed

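Dual-colour Agilent mouse arrays measured RNA of 8 follicular B cell samples, each hybridised in both dye orientations against a reference of 6 cell lines. Per the labels' protocols, RNA was amplified before labelling. Per the file headers, the deposited scanner files hold raw foreground and background intensity and a log10 ratio from Agilent Feature Extraction 9.1.1.1, 9.1.3.1 or 9.5.1.1. The deposited table of the series holds a log2 ratio, for which the submitters' processing notes name limma without a step. Its scale was read from the values, and the direction and sample of each column were taken from the array it correlated with best. Its column medians ran from -0.02 to 0.02, and 0 columns belonged to no sample.

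In R 4.3.3 with limma 3.58.1 and data.table (version 1.17.8), mean foreground was corrected by normexp (offset 50) and normalized by loess within arrays, giving control spots no weight. Spots flagged as outliers were left out, and spots of a probe and then the arrays of a pair were averaged. A probe was kept if its sample channel was well above background on both arrays of at least 2 samples (29640 of 41174). Thy-1 labels were compared with 2 means (6 residual degrees of freedom), and Auto.Pos, Auto.Neg and WT pairwise with 5 group means (3). P-values were adjusted by Benjamini and Hochberg over all kept probes, with a threshold of 0.05, and every probe is its own unit. Edited and Non-edited, 1 sample each, were compared by 2-fold differences in both orientations. The fits were run on simulated data with independent noise for each sample. The simulation held no slide or scan-day effect, so it does not show how the fits behave under those.

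Deviations of same-numbered samples from the group means correlated at -0.81 for Auto.Neg and Auto.Pos, -0.27 for Auto.Neg and WT, and 0.26 for Auto.Pos and WT. Auto.Neg sample 2 and Auto.Pos sample 1, which deviated together, shared slide 2. These values therefore do not settle whether same-numbered samples pair. The members, the 48-gene list, the 2 Mb window and the tests were chosen with earlier results of these data known. Named genes were the members, and in each comparison the 4 list probes of largest difference among those above background on all arrays compared; near Thy1, the 4 of largest difference; and for likeness, the 5 of highest Pearson r. Alternatives covered background correction, normalization, scaling, filters, gene-level units, dyes, the series table, scanner version, replicate number, and each sample left out. Rematched columns, scanner protocol, slide, scan day and the fit without slide 2 were added after seeing the data. RefSeq symbols matched 9 of 9 members. 1 B cell marker of the list is not reported here. Coordinates of probes are those of the files (mm7); the promoters of Thy1 and Cd4 are not shown here.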

Additional observations from a re-analysis of the deposited data

Results flagged for a closer look

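3 readings stood apart from the rest of their Thy-1 label group by Dixon's test over groups of 4 samples, which chance flags in about 1 of 20 groups, and 28 groups were tested. The Zap70 value of Non-edited was -2.54, above the other labelled-knockout samples. On Cd8a probe A_52_P443334, Auto.Neg sample 2 read -2.25, above the other labelled-knockout samples. On the Cd4 probe that was not kept, A_51_P236573, Auto.Pos sample 2 read -0.14, below the others without the label.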

How the results depend on the processing

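Every result was recomputed under each setting that applied to it. The Thy1 spanning probe stayed higher in the labelled-knockout samples under all 25 that gave a value, at 1.76 to 3.59, and at 2.51 to 3.14 with each sample left out, and its adjusted p was 0.115 or above in each. The 60-base probe ranged from 0.04 to 0.31 with each sample left out. It turned to -0.47 within slide 2, to -0.13 with scan day as a random block and to -0.0018 on the Cy5 arrays.

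Leaving out each sample gave 0 to 8 calls by Thy-1 label (8 without Auto.Neg sample 2), 0 to 3 in Auto.Pos against Auto.Neg, 0 to 0 in Auto.Pos against WT and 0 to 0 in Auto.Neg against WT. By Thy-1 label there were 2 calls with 5 group means and 10 without slide 2. For Auto.Pos against Auto.Neg, the 3 calls became 1 with the scanner's log ratio, 12 on the Cy5 arrays, 9 with software version as a block and 41 with scan day as a random block. They became 0 with median centring, scale normalization, no filter, the table as labelled, the Cy3 arrays, the scanner protocol as a block and without slide 2. For Auto.Pos against WT, 0 became 1 with the scanner's log ratio and with the rematched table, 7 with scale normalization, 64 on the Cy5 arrays, 139 with software version and 6214 with scan day as a random block. Auto.Neg against WT gave 52 on the Cy5 arrays and 610 with scan day. Edited against Non-edited, 346 probes, became 1155 with the scanner's log ratio. The slide as a random block could not be fitted, since its correlation could not be estimated.

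With the replicate number as a block over the 6 samples of replicated groups, the spanning probe differed by 3.30 and the calls were 0 in each comparison, also in Auto.Pos against Auto.Neg, and Cd3d turned to 0.0561. Crossing the Auto.Neg numbers gave 0 calls in Auto.Pos against Auto.Neg, with 749 at an unadjusted p under 0.05 against 275 without a block.

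By Thy-1 label, other signs that turned were Cd3d at 0.0075 with median centring and 0.0561 in the replicated groups alone, with -0.3665 to 0.0606 as each sample was left out; Cd3e at 0.0757 with median centring and 0.12 in the table as labelled; Cd3g at 0.075 on the Cy5 arrays; Zap70 at 0.11 on the Cy5 arrays, 0.0668 with median centring and -0.2552 to 0.1331 as each sample was left out; and Cd8a probe A_52_P443334 at 0.0159 in the table as labelled. Within slide 2, Cd4 was 0.0075, Lat -0.0704, Lck 0.23 and Lcp2 0.18. The spanning probe in Auto.Pos against WT was 0.68 on the Cy5 arrays, 0.49 with scale normalization and -0.4256 to 0.4135 as each sample was left out, above 0 without Auto.Pos sample 2 or WT sample 2. In the table as labelled, Auto.Pos minus Auto.Neg was 0.36 for Lck, -0.66 for Ptpn22 and 0.0709 for Slamf1, and Auto.Pos minus WT was -0.40 for Lef1 probe A_51_P501145. Lef1 probe A_51_P420400 in Auto.Neg against WT was -0.12 with scan day as a random block. The causes were not tested. A group of 1 or 2 samples limits each comparison, and a lone sample was assumed to vary like the other groups.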
